A study of Setaria italica with 24 samples.

Results

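The 4 genes described here belong to aromatic amino acid metabolism in foxtail millet (Setaria italica) and were chosen by their transcript levels, which were higher in roots inoculated with an arbuscular mycorrhizal fungus (AMF) than in mock-treated roots of the landrace Hanevalval. They are SETIT_021701mg (Shikimate dehydrogenase), SETIT_036040mg (Anthranilate phosphoribosyltransferase), SETIT_030453mg (SER/THR dehydratase, Tryp synthase) and SETIT_001761mg (Subgroup I aminotransferase related), with annotations taken from the amino acid gene table of the study. They are 4 of 26785 genes listed for at least 1 line, and all 4 are listed in the tables of all 3 lines. The measured values that selected them are the AMF and mock values of Hanevalval, which are therefore given as a description without a test. TT8 and ICE36 did not enter the choice directly, and their comparisons were tested.

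Root RNA was sequenced from AMF-treated and mock-treated plants of 3 lines with 4 libraries per group, 24 in all, at 6 weeks after inoculation. AMF-treated plants received Claroideoglomus etunicatum, and mock-treated plants were kept without it. Hanevalval is a landrace and TT8 a cultivar, both from Taiwan, and ICE36 is a landrace from India that the study spells ISE36. No group carried a transgene or mutation, and the study calls the libraries of a group biological samples. The labels do not say whether each came from a separate plant, so p-values measure the spread between these libraries. The deposited values are normalized counts, that is, reads per gene divided by a DESeq2 size factor for each library, on 1 scale for all 24 libraries. Each library held between 15013564 and 23333517 reads on genes, and the 4 genes had between 282 and 7541 reads in a library. Gene lengths were not used, so levels are compared between libraries and never between genes.

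Plants make phenylalanine, tyrosine and tryptophan from a common precursor, chorismate, which is built in the plastid by the shikimate pathway. Shikimate dehydrogenase produces shikimate on the way to chorismate. Tryptophan synthesis leaves chorismate through anthranilate synthase, anthranilate phosphoribosyltransferase adds a phosphoribosyl group to anthranilate, and the beta subunit of tryptophan synthase joins indole with serine. Aminotransferases move amino groups between amino acids and keto acids and serve many pathways, and the annotation of SETIT_001761mg does not name its substrate. Phenylalanine also feeds the phenylpropanoids of lignin and defence through phenylalanine ammonia-lyase (PAL).

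In Hanevalval, the values that chose the genes were the following. SETIT_021701mg, the shikimate dehydrogenase gene, had 1878, 1803, 2705 and 2447 normalized counts in the AMF-treated libraries 1 to 4, against 828, 644, 1252 and 1057 in the mock-treated libraries 1 to 4. SETIT_036040mg, the anthranilate phosphoribosyltransferase gene, had 1574, 1178, 2281 and 2045 normalized counts in AMF-treated roots, against 322, 466, 662 and 722 in mock-treated roots. In both genes every AMF-treated library lay above every mock-treated one, and libraries 3 and 4 were the higher pair within each treatment.

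SETIT_030453mg, whose annotation names both Ser/Thr dehydratase and tryptophan synthase, had 4752, 3786, 7921 and 6544 normalized counts in AMF-treated Hanevalval, against 908, 1017, 2175 and 1768 in mock-treated Hanevalval. SETIT_001761mg, the aminotransferase-related gene, had 1723, 1833, 2417 and 2344 normalized counts in AMF-treated Hanevalval, against 797, 678, 1339 and 919 in mock-treated Hanevalval. Both genes also separated the treatments without overlap and were again higher in libraries 3 and 4 of either treatment. Every AMF library above every mock library was also the pattern of 11.6% of the 24847 genes tested in Hanevalval. The lowest AMF-treated library exceeded the highest mock-treated library 1.44-fold for SETIT_021701mg, 1.63-fold for SETIT_036040mg, 1.74-fold for SETIT_030453mg and 1.29-fold for SETIT_001761mg.

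On the log2(value + 1) scale, the difference of AMF from mock in Hanevalval was largest among the 4 for SETIT_030453mg, at 2.01 ± 0.34 (SE, n = 4 per group), a 4.02-fold higher level. It was 1.73 ± 0.30 for SETIT_036040mg, 1.25 ± 0.24 for SETIT_021701mg and 1.19 ± 0.23 for SETIT_001761mg, or 3.31-fold, 2.37-fold and 2.28-fold. A gene was called with limma where its p after Benjamini-Hochberg adjustment did not exceed 0.05 and its level changed by 2-fold or more. By this rule 1.42% of the genes tested in Hanevalval were called higher, and the 4 genes are among them by choice. The adjusted p used by the choice was 0.0439 for SETIT_001761mg and SETIT_021701mg, just inside the limit. Just outside were SETIT_010798mg (anthranilate synthase) at 0.0510 and SETIT_029865mg (3-dehydroquinate synthase) at 0.0528.

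**Figure D1:**
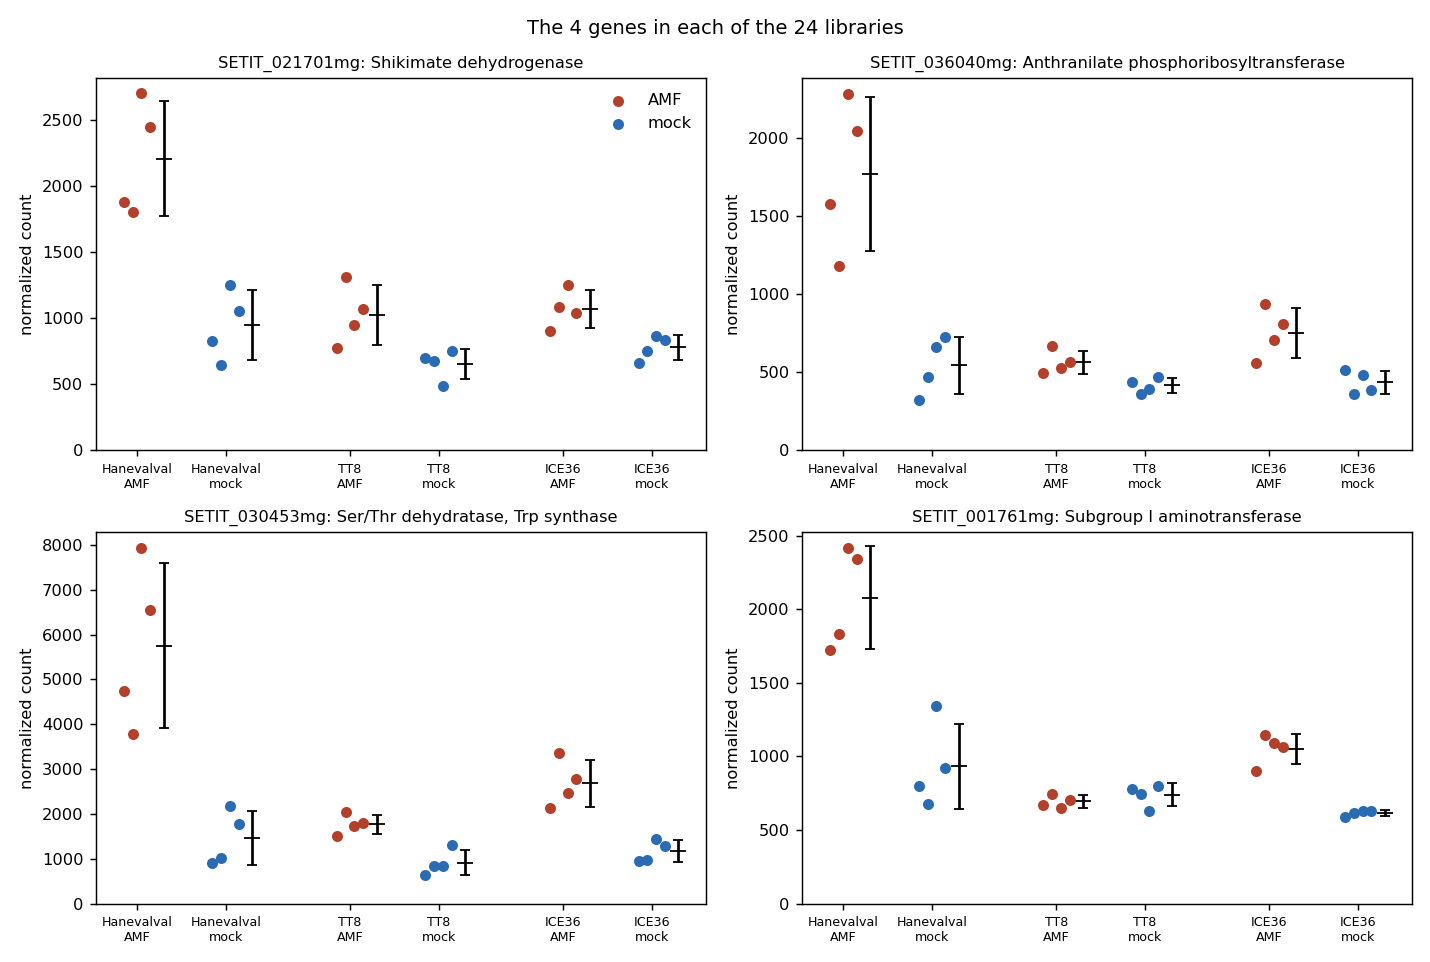
Normalized counts (vertical axes, from 0) of the 4 genes in the 24 libraries, by line and treatment. Each point is 1 library, in replicate order within a group, and the bar beside it is the mean ± SD of 4 libraries. The AMF-treated Hanevalval libraries are above all others in each panel, and only SETIT_001761mg has overlapping treatments in TT8.

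In TT8, 3 of the 4 genes rose with AMF by the adjusted p alone, and 0 of 4 reached the fold limit as well with limma, edgeR or DESeq2 (3 of 4 had an unadjusted p under 0.05 in limma). SETIT_021701mg had 773, 1314, 946 and 1067 normalized counts in AMF-treated TT8, against 700, 674, 488 and 749 in mock-treated TT8. Its log2 difference was 0.64 ± 0.19 (SE, n = 4 per group; limma, adjusted p = 0.0357). The ranges lay next to each other, with the lowest AMF-treated library just above the highest mock-treated one.

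SETIT_036040mg had 495, 666, 528 and 561 normalized counts in AMF-treated TT8, against 439, 361, 391 and 470 in mock-treated TT8. The treatments did not overlap and the log2 difference was 0.44 ± 0.13 (SE; limma, adjusted p = 0.0396), a 1.35-fold higher level. SETIT_030453mg had 1513, 2036, 1726 and 1797 normalized counts in AMF-treated TT8, against 648, 852, 848 and 1311 in mock-treated TT8. Mock library 4 stood above the other mock libraries, and the log2 difference was 0.99 ± 0.20 (SE; limma, adjusted p = 0.0127), a 1.98-fold higher level.

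SETIT_001761mg was the exception in TT8, with 672, 746, 651 and 707 normalized counts in AMF-treated libraries and 781, 747, 630 and 802 in mock-treated libraries. The ranges overlapped, and the log2 difference was -0.09 ± 0.11 (SE; limma, adjusted p = 0.566). Among all 24880 genes tested in TT8, 15.8% were higher at this adjusted p without a fold limit, 10.6% were called higher with it, and 12.6% had every AMF library above every mock library. With values scaled to the same total per library, SETIT_021701mg and SETIT_036040mg no longer passed in TT8, at adjusted p = 0.107 and 0.315 (limma). Under that scaling the median of all genes was -0.25, and relative to it their log2 differences were 0.65 and 0.44. With quantile normalization they did not pass either, at adjusted p = 0.0534 and 0.062 (limma). Why they no longer passed was not tested. Both also lost the adjusted p without mock library 1, 2 or 3 or AMF library 2, 3 or 4 of TT8, with adjusted p up to 0.0933 for SETIT_021701mg and 0.109 for SETIT_036040mg (limma).

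In ICE36 all 4 genes rose with AMF by the adjusted p, and SETIT_030453mg also passed the fold limit. It had 2131, 3359, 2464 and 2770 normalized counts in AMF-treated ICE36, against 953, 972, 1453 and 1285 in mock-treated ICE36. The treatments were well separated, with a log2 difference of 1.20 ± 0.18 (SE, n = 4 per group; limma, adjusted p = 0.00169). SETIT_001761mg had 903, 1143, 1092 and 1067 normalized counts in AMF-treated ICE36, against 592, 614, 632 and 627 in mock-treated ICE36. Its mock-treated libraries were the tightest group of any of the 4 genes, at 616 ± 18.1 (SD, n = 4), and the log2 difference was 0.77 ± 0.10 (SE; limma, adjusted p = 0.000991).

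SETIT_036040mg had 558, 934, 702 and 810 normalized counts in AMF-treated ICE36, against 512, 357, 479 and 385 in mock-treated ICE36, a log2 difference of 0.78 ± 0.18 (SE; limma, adjusted p = 0.0108). SETIT_021701mg had 899, 1083, 1254 and 1040 normalized counts in AMF-treated ICE36, against 662, 749, 865 and 833 in mock-treated ICE36. Its log2 difference, 0.46 ± 0.13 (SE; limma, adjusted p = 0.0258), was the smallest of the 4 in this line. It did not pass without mock library 2 or AMF library 2, 3 or 4, with adjusted p up to 0.0703 (limma). No AMF-treated library of ICE36 overlapped the mock-treated ones for any of the 4 genes, a pattern that 17.1% of the 25036 genes tested in ICE36 shared. Of these genes 15.1% were higher by the adjusted p alone, and 5.79% were called higher with the fold limit.

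Across the 6 groups, AMF-treated Hanevalval had the highest level of each gene, and its 4 libraries were above the other 20 for all 4 genes. This was so for 4.42% of the 23417 genes compared, and since Hanevalval chose the genes it is a description. AMF-treated ICE36 came next in each gene. For SETIT_030453mg the order was AMF-treated Hanevalval at 5750 ± 1843, AMF-treated ICE36 at 2681 ± 522 and AMF-treated TT8 at 1768 ± 216, then mock-treated Hanevalval at 1467 ± 608, mock-treated ICE36 at 1166 ± 245 and mock-treated TT8 at 915 ± 281 normalized counts (SD, n = 4 each). The ranges of the last 4 groups overlapped each with its neighbour, while the first 3 did not overlap each other.

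SETIT_036040mg kept the same order, at 1769 ± 492 in AMF-treated Hanevalval, 751 ± 160.0 in AMF-treated ICE36 and 563 ± 73.9 in AMF-treated TT8, then 543 ± 184 in mock-treated Hanevalval, 433 ± 74.0 in mock-treated ICE36 and 415 ± 48.7 in mock-treated TT8 (SD, n = 4 each). SETIT_021701mg also kept it, at 2208 ± 438 in AMF-treated Hanevalval, 1069 ± 146 in AMF-treated ICE36 and 1025 ± 227 in AMF-treated TT8, then 945 ± 265 in mock-treated Hanevalval, 777 ± 91.3 in mock-treated ICE36 and 653 ± 114 in mock-treated TT8. In these 2 genes only AMF-treated Hanevalval stood clear of its neighbour. SETIT_001761mg had another order below the first place, with AMF-treated ICE36 at 1052 ± 104, mock-treated Hanevalval at 933 ± 288, mock-treated TT8 at 740 ± 76.7, AMF-treated TT8 at 694 ± 41.9 and mock-treated ICE36 at 616 ± 18.1 normalized counts, after 2079 ± 352 in AMF-treated Hanevalval (SD, n = 4 each). Neighbours in that order overlapped, except AMF-treated Hanevalval above AMF-treated ICE36 and AMF-treated TT8 above mock-treated ICE36.

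The lines that did not choose the genes were compared directly. The model took its residual spread from all 24 libraries, so the Hanevalval values that chose the genes enter its intervals and p. The AMF response of SETIT_001761mg in TT8 was below that in ICE36 by a log2 difference of -0.85 (normal 95% interval -1.29 to -0.42; limma interaction over 24 libraries, adjusted p = 0.0156). For the other 3 genes the response did not pass the test of a difference between TT8 and ICE36. The difference was 0.18 (95% interval -0.37 to 0.74; adjusted p = 0.700, limma) for SETIT_021701mg, -0.35 (-0.98 to 0.29; adjusted p = 0.507) for SETIT_036040mg and -0.22 (-0.97 to 0.53; adjusted p = 0.746) for SETIT_030453mg. Each of these intervals reaches beyond 0.5 in at least 1 direction, so this comparison could not resolve differences of that size. Among all genes 10.6% differed in response between TT8 and ICE36 at the adjusted p and a fold of at least 2, and 0 of the 4 genes reached both limits. With values scaled to the same total per library, SETIT_001761mg reached both, at -1.02 (limma, adjusted p = 0.00656). With only the 16 libraries of TT8 and ICE36, its difference was again -0.85 (limma, adjusted p = 0.00131). In that fit the adjusted p (limma) was 0.604 for SETIT_021701mg, 0.291 for SETIT_036040mg and 0.618 for SETIT_030453mg.

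In the same model, mock levels of the 4 genes did not pass the test between TT8 and ICE36. Of the 23492 genes compared, 16.4% did at the adjusted p and the fold limit. The log2 difference of mock-treated TT8 from mock-treated ICE36 was 0.26 for SETIT_001761mg (95% interval -0.05 to 0.57; limma, adjusted p = 0.217) and -0.26 for SETIT_021701mg (-0.65 to 0.13; adjusted p = 0.332). It was -0.05 for SETIT_036040mg (-0.50 to 0.40; limma, adjusted p = 0.881) and -0.37 for SETIT_030453mg (-0.90 to 0.16; adjusted p = 0.307).

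The study's table holds 17 further aromatic genes, namely 6 of the shikimate steps, 5 of the branches after chorismate and 6 PAL genes, and it was compiled with these data, so its counts are not independent evidence of a direction. In Hanevalval all 11 genes of the shikimate and branch steps had a positive log2 difference, between 1.08 and 2.70 with a median of 1.74. With limma 0 of 11 were called (11 of 11 had an unadjusted p under 0.05). The study, which used DESeq2, marks all 11 as significant in Hanevalval, like the 4 genes. The 4 genes had a median log2 difference of 1.49. Their pooled SD within groups on the log2 scale was 0.34 to 0.55 with a median of 0.42, against 0.46 to 0.85 (median 0.73) for the shikimate steps and 0.53 to 1.41 (median 0.81) for the branch steps. Since the 4 were chosen by an adjusted p on these values, a small spread is part of the choice and no finding. SETIT_018043mg (phosphoribosylanthranilate isomerase, the step after anthranilate phosphoribosyltransferase) had the highest log2 difference of the 11, 2.70 ± 0.84 (SE; limma, adjusted p = 0.0782). SETIT_006296mg (3-phosphoshikimate 1-carboxyvinyltransferase, the penultimate step to chorismate) was at 1.75 ± 0.51 (SE; limma, adjusted p = 0.0711), and SETIT_035737mg (chorismate synthase, the last step) at 1.69 ± 0.46 (adjusted p = 0.0639).

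Which aromatic genes were called in Hanevalval changed with the tool and the libraries. With DESeq2 on the recovered reads, 9 of the 11 other genes were called higher, with limma over all 24 libraries all 11, and with edgeR 0 of 11. Without Hanevalval mock libraries 3 and 4, a setting chosen after seeing the data, the log2 differences of the 4 genes were 1.48 to 2.52. These libraries were the higher mock pair for each of the 4 genes, so leaving them out had to raise the differences. Leaving out a single Hanevalval library left 0 of the 4 called in 7 of 8 fits and 4 called in the fit without mock library 3. Their log2 differences stayed between 1.05 and 2.23 in those 8 fits, and the number of all genes called ran between 0 and 3964.

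In TT8, the median log2 difference of the 4 genes was 0.54, against 0.83 for the 11 other genes, of which 8 rose by the adjusted p and 3 were called. SETIT_010798mg (anthranilate synthase) rose by 0.83 ± 0.17 (SE; limma, adjusted p = 0.0117) and SETIT_013676mg (tryptophan synthase beta chain) by 0.87 ± 0.17 (adjusted p = 0.0113). In ICE36, the median was 0.77 for the 4 and 0.92 for the 11, of which 9 rose by the adjusted p and 3 were called. SETIT_018043mg rose by 1.82 ± 0.35 (SE; limma, adjusted p = 0.00577), and SETIT_013676mg by 1.01 ± 0.17 (adjusted p = 0.00278). The median over all genes tested was -0.01 in both TT8 and ICE36 and 0.01 in Hanevalval.

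The 2 genes annotated as shikimate dehydrogenase can be set side by side in their responses. SETIT_000995mg had log2 differences of 1.08 ± 0.29 in Hanevalval, 0.20 ± 0.15 in TT8 and 0.48 ± 0.14 in ICE36 (SE), and only that in ICE36 passed (limma, adjusted p = 0.0275). SETIT_021701mg passed in both TT8 and ICE36, at 0.64 ± 0.19 and 0.46 ± 0.13 (SE), though neither pass held in every alternative fit. No test compared the 2 genes with each other. The counting by the authors could have split reads between such related genes, and this was not tested.

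**Figure D2:**
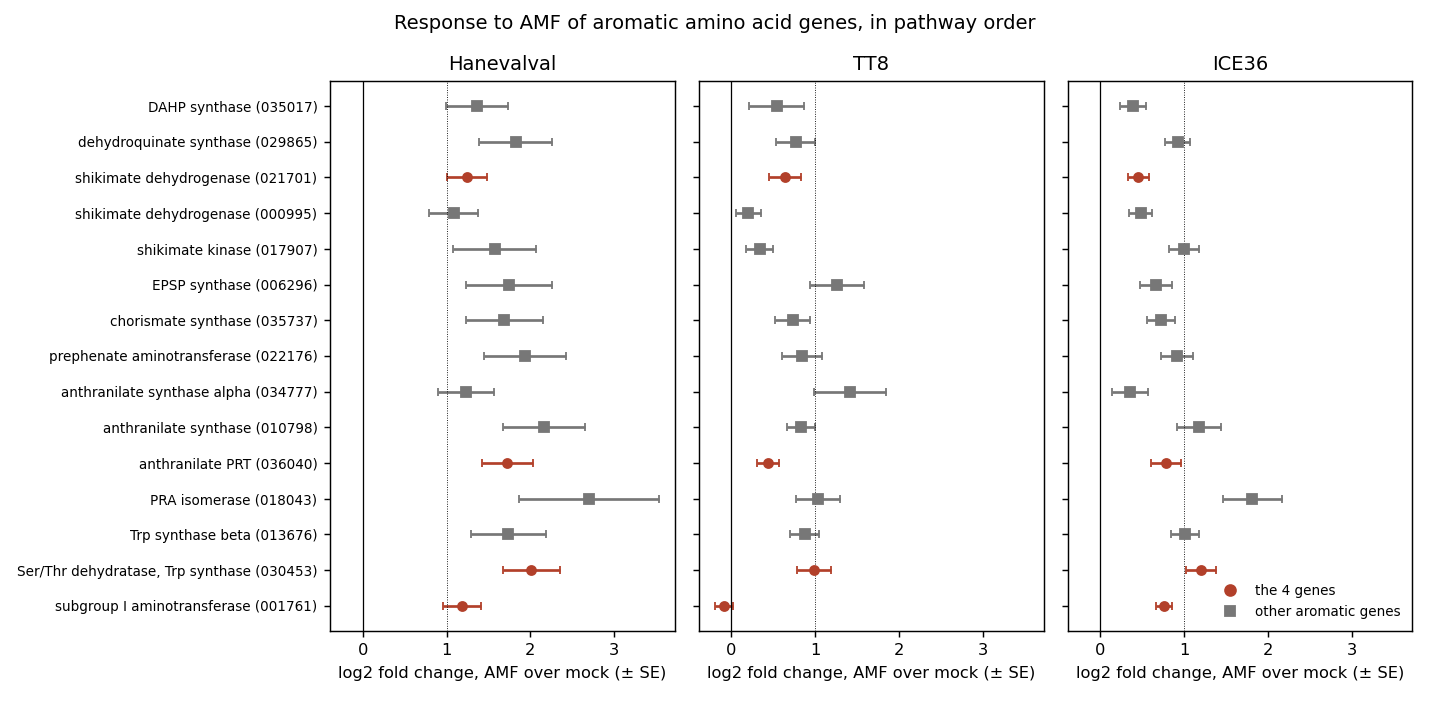
Log2 fold change of AMF over mock (horizontal axes, ± SE, n = 4 per group) in each line for the 4 genes (circles) and the 11 other genes of the shikimate and branch steps (squares), in pathway order with the aminotransferase last. Solid and dotted lines mark 0 and 1. All Hanevalval values are above 1, and SETIT_001761mg in TT8 is the only value below 0.

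PAL genes, which act downstream of phenylalanine, differed among themselves. In Hanevalval 0 of 6 were called with limma or edgeR and 3 with DESeq2, with log2 differences between -0.70 and 2.96 and 5 of 6 at an unadjusted p under 0.05 in limma. In TT8, 2 rose and 1 fell among the 6 with limma, and in ICE36, 4 rose and none fell. In TT8, 2 fell with DESeq2 or with values scaled to the same total, and 3 with quantile normalization. The study marks SETIT_009509mg and SETIT_016504mg as lower in TT8, the latter here at -0.97 (limma, adjusted p = 0.0829). SETIT_016475mg was called in both lines, with log2 differences of 1.86 ± 0.44 in TT8 (SE; limma, adjusted p = 0.0186) and 2.27 ± 0.36 in ICE36 (adjusted p = 0.00221). With limma on all 24 libraries 0 PAL genes were called higher and 1 lower in TT8, so its call there was lost. SETIT_009509mg fell by 1.33 in TT8 (SE 0.26; limma, adjusted p = 0.0111) and was at 0.00 ± 0.23 in ICE36 (adjusted p = 0.991). Among the glutamine family genes of the same table, 0 of 20 were called higher in Hanevalval with limma or edgeR and 8 with DESeq2 (13 of 20 higher at an unadjusted p under 0.05 in limma), 16 of 21 were called higher in TT8, and in ICE36 6 were called higher and 2 lower of 20. With limma on all 24 libraries 2 were called higher and 0 lower in ICE36.

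Within groups the 4 genes varied together in Hanevalval, where each library had 0 or 4 of them above the group mean. The other lines were mixed in part. TT8 mock libraries 1 and 2 had 3 and 2 above it. ICE36 mock libraries 1 and 4 had 1 and 3, and its AMF libraries 3 and 4 had 2 and 3. Over the 24 libraries, Pearson's r of log2(value + 1) was 0.88 to 0.95 between pairs of the 4, and of the deviations from the group means 0.61 to 0.86. These are descriptions over libraries that share the lines and treatments, without a p. The 24 libraries include the Hanevalval values that chose the 4 genes, so a high r of their levels is in part built in. The deviations also pool the 3 lines, and their spread was largest in Hanevalval. The median pooled SD of the 4 genes was 0.42 there, 0.24 in TT8 and 0.24 in ICE36. For the deviations, r was not computed over all genes. Ranked by r among 23417 genes, the 4 stood for each other between rank 2 (SETIT_030453mg for SETIT_036040mg) and rank 463 (SETIT_001761mg for SETIT_030453mg). Among 23417 genes, SETIT_036040mg was most like SETIT_010798mg (anthranilate synthase), at r = 0.96, then SETIT_030453mg, at 0.95, and SETIT_014760mg, at 0.95. SETIT_021701mg was most like SETIT_009589mg, SETIT_029865mg (3-dehydroquinate synthase) and SETIT_032797mg, all at r = 0.97. The genes most like SETIT_030453mg were SETIT_023764mg, SETIT_010973mg and SETIT_001915mg, at r = 0.97, 0.96 and 0.96, and those most like SETIT_001761mg were SETIT_035847mg, SETIT_023618mg and SETIT_034414mg, at 0.97 each. SETIT_023618mg was, like the aminotransferase-related gene, flat in TT8, at 1135 in AMF-treated and 1171 in mock-treated TT8. In ICE36 it was at 2197 in AMF-treated and 1003 in mock-treated libraries (means of normalized counts). It was picked by its r over these same libraries, so this likeness is part of the choice and no finding.

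Transcript levels of 10 marker genes of colonized roots were read beside the 4 genes. SETIT_004288mg (PHT1;9, a phosphate transporter) had 1475, 103, 302 and 193 normalized counts in AMF-treated Hanevalval, against 1.14, 1.90, 97.0 and 29.1 in mock-treated Hanevalval. Mock libraries 3 and 4 thus held more of this marker than mock libraries 1 and 2, and mock library 3 was close to AMF library 2. In TT8 it had 1940 to 3682 normalized counts in AMF-treated libraries, against 0.853 to 74.6 in mock-treated libraries, and in ICE36 66.6 to 307 in AMF-treated libraries, against 0 to 3.31 in mock-treated libraries. The highest mock-treated TT8 library was library 4.

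The summed level of the 10 markers was 499 to 4050 in AMF-treated and 77.5 to 297 in mock-treated Hanevalval, 7295 to 12983 in AMF-treated and 75.1 to 286 in mock-treated TT8, and 319 to 1019 in AMF-treated and 95.8 to 127 in mock-treated ICE36. No marker was at 0 in any AMF-treated library. Of the 10, 3 and 4 were at 0 in Hanevalval mock libraries 1 and 2, and 0 and 1 in mock libraries 3 and 4. All 10 markers had a positive log2 difference in each line, with a median of 3.60 in Hanevalval, 6.78 in TT8 and 3.45 in ICE36. They were picked with the study's results for these data known, so this direction is part of the choice and no finding. The study's list of conserved symbiosis genes also holds genes that fell with AMF, such as a class III chitinase gene lower in all 3 lines. With limma, 2 of 10 were called higher in Hanevalval, 10 in TT8 and 8 in ICE36. In Hanevalval all 10 had an unadjusted p under 0.05 in limma, and 1 was called with edgeR, 9 with DESeq2 and 10 with limma on all 24 libraries.

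All 4 genes were above their group mean in Hanevalval mock libraries 3 and 4 and in TT8 mock library 4, the mock-treated libraries with the highest marker sums of those lines. ICE36 did not share this pattern, as its mock library 2 had the highest marker sum, 127, with 0 of the 4 genes above the group mean, and its mock library 3 had all 4 above it at a sum of 102. The mean level of Hanevalval mock libraries 3 and 4 over that of mock libraries 1 and 2 was 2.05-fold for SETIT_030453mg, 1.76-fold for SETIT_036040mg, 1.57-fold for SETIT_021701mg and 1.53-fold for SETIT_001761mg. The AMF-treated mean was 1.84-fold to 2.92-fold the mean of mock libraries 3 and 4, and 2.82-fold to 5.98-fold that of mock libraries 1 and 2. Among AMF-treated Hanevalval libraries, library 1 had the highest marker sum, 4050, and all 4 genes were below their group mean there. In libraries 1 to 4 the sums were 4050, 499, 1020 and 904. The mean log2 deviations of the 4 genes were -0.20, -0.38, 0.37 and 0.21. The highest sum in AMF-treated TT8 was in library 2, with all 4 genes above their group mean. The lowest, 7295, was in library 4, also with all 4 above it. In AMF-treated ICE36 the highest sum, 1019, was in library 4, with 3 of the 4 genes above their group mean. Their mean log2 deviation there was 0.05, against 0.21 in library 2, where the sum was 426 and all 4 were above. The part of colonization in the levels of the 4 genes was not tested, and in these bulk roots fewer cells of a type and less RNA per cell cannot be told apart. Across lines, AMF-treated TT8 had the highest marker sums and AMF-treated Hanevalval the highest levels of the 4 genes. The sums are transcript levels and not a measure of colonized root length. In AMF-treated TT8 their largest parts were SETIT_032400mg (germin-like) and PHT1;9, at means of 3048 and 2639 normalized counts. By root staining, the study found the colonization of its lines to be similar.

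**Figure D3:**
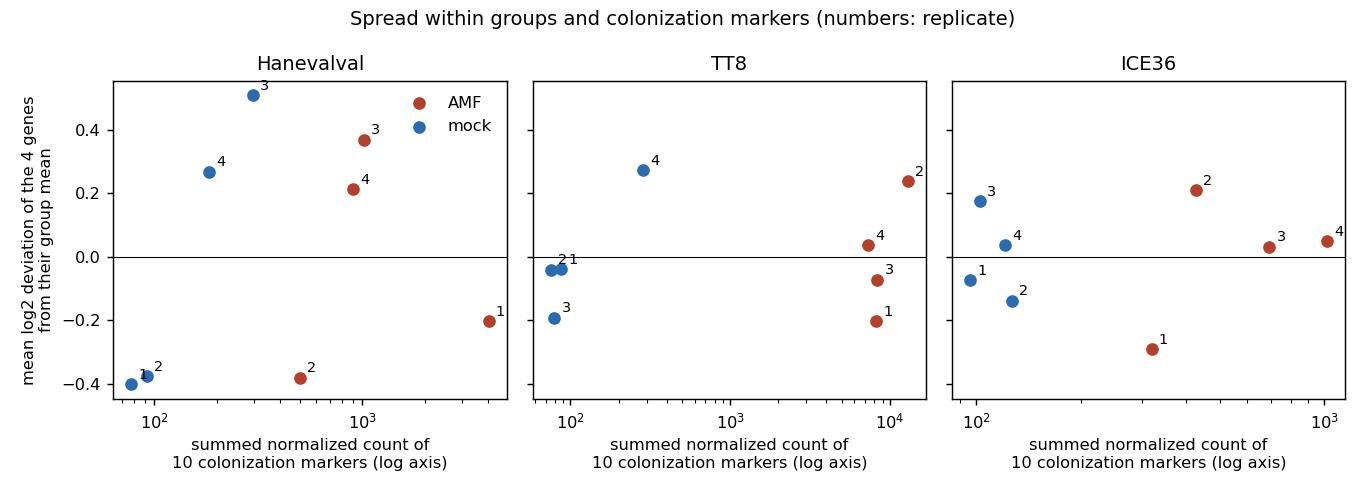
Mean log2 deviation of the 4 genes from their group mean (vertical axis) against the summed normalized count of 10 colonization markers (horizontal log axis) for the 8 libraries of each line, numbered by replicate. Hanevalval mock libraries 3 and 4 and TT8 mock library 4 lie right of and above the other mock-treated libraries of their line, and Hanevalval AMF library 1 lies farthest right and below 0.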

How the data were processed

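Per the labels, the authors trimmed reads with Trimmomatic 0.38, aligned them with HISAT2 2.1.0 to the S. italica genome, counted them with featureCounts 2.0.0 and scaled them with DESeq2 1.26.0. The deposited signal values are gene counts divided by a size factor per library, 1 table per line. They were whole multiples of 1 step per library for 100% of 607864 values (tolerance 0.0001), which gave the reads and depth. 0 columns lacked a sample. AMF-treated and mock-treated libraries of each line were compared with limma 3.58.1 (variance trend, Benjamini-Hochberg adjustment over all genes) on log2(value + 1), keeping genes whose mean value in the line reached 5. TT8 and ICE36 were compared in 1 limma model of 6 group means. edgeR 4.0.16 and DESeq2 1.42.0 on the recovered reads, other scalings, pseudocounts and filters, and left-out libraries were alternatives (R 4.3.3). Figures used Python 3.11.15 and matplotlib 3.10.9.

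The genes and lists were chosen with earlier results of these data known. Named genes are the 4 genes, the other aromatic genes of the study's table, PHT1;9, and the 3 genes most correlated with each of the 4. Of the members' identifiers 0 matched the RefSeq gene table, so positions and sequences were not used here. Libraries of a group differed beyond sampling noise (smallest chi-square per gene 7.06). Same-numbered AMF and mock libraries correlated between -0.14 and 0.23 in their deviations, and numbers were not treated as pairs. In Hanevalval these r were 0.04 to 0.23. Mock libraries 3 and 4 of Hanevalval, 1, 2 and 4 of TT8 and 1 and 3 of ICE36 were most like the AMF library of their number. Whether same-numbered libraries share an effect was not tested.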

Additional observations from a re-analysis of the deposited data

Results flagged for a closer look

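The AMF response of SETIT_001761mg (Subgroup I aminotransferase related) differed between TT8 and ICE36, at -0.85 on the log2 scale for TT8 minus ICE36 (limma interaction over 24 libraries, adjusted p = 0.0156), with mean normalized counts of 694 in AMF-treated and 740 in mock-treated TT8, and 1052 in AMF-treated and 616 in mock-treated ICE36. In 16 fits that left out 1 library each it stayed between -0.93 and -0.81, with adjusted p between 0.0148 and 0.0368. None of the 24 groups of 4 libraries of the 4 genes held a library far from the others by Dixon's criterion.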

How the results depend on the processing

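SETIT_036040mg in TT8 no longer passed with limma on all 24 libraries (log2 0.44, adjusted p = 0.153), with values scaled to the same total (0.20, adjusted p = 0.315), with quantile normalization (0.37, adjusted p = 0.062) or with the replicate number as a block (0.44, adjusted p = 0.0752). SETIT_021701mg in TT8 no longer passed with the same-total scaling (0.40, adjusted p = 0.107) or quantile normalization (0.52, adjusted p = 0.0534), and in ICE36 with limma on all 24 libraries (0.46, adjusted p = 0.118). The mock level of SETIT_001761mg in TT8 minus ICE36 passed with only their 16 libraries (0.26, adjusted p = 0.048). The cause was not tested. The other log2 differences of the 4 genes in TT8 and ICE36 kept their side of the adjusted p under these alternatives. The scaling to the same total gave 35.9%, 46.4% and 47.3% of calls as higher in Hanevalval, TT8 and ICE36, against 50.3%, 63.4% and 54.6%, and quantile normalization 54.6% in TT8.

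Without single libraries, SETIT_021701mg and SETIT_036040mg in TT8 ranged between 0.51 and 0.77 and between 0.35 and 0.50, and both lost the adjusted p without mock library 1, 2 or 3 or AMF library 2, 3 or 4 (adjusted p up to 0.0933 and 0.109). SETIT_021701mg in ICE36 ranged between 0.38 and 0.54 and lost it without mock library 2 or AMF library 2, 3 or 4 (adjusted p up to 0.0703). SETIT_030453mg in TT8 was called without mock library 4 (1.18) or AMF library 1 (1.06), so 0 to 1 of the 4 genes were called there, and 0 to 4 in Hanevalval.

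The genes called in Hanevalval, 704 with limma, numbered 3612 with DESeq2, 4360 with limma on all 24 libraries, 271 at a mean of at least 50, 1867 with the replicate block, 7828 without mock libraries 3 and 4 and 0 to 3964 without single libraries. Those in TT8 numbered 1993 to 5993 without single libraries, against 4150, and those in ICE36 1532 with limma on all 24 libraries, against 2654. With the replicate block, 5 of 6 shikimate, 4 of 5 branch and 9 of 20 glutamine family genes were called higher in Hanevalval, against 0, 0 and 0. The block changed no other call of the 4 genes, and not every library was most like its own number.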
